A study of Mus musculus with 2 samples.

Results

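Accessibility was measured at 6 receptor tyrosine kinase genes, Pdgfra, Kit, Kdr, Pdgfrb, Flt1 and Flt4, out of 21884 protein-coding genes. The members were chosen as a receptor family, by name. The rule used no measured value, but earlier results of these data were known when it was set, and all 6 had fragments in both libraries. For each gene, the fragments that overlapped the gene body or the 2 kb upstream of its start were counted in nuclei and expressed as CPM, fragments in the window per 1000000 fragments of those nuclei. Whole brains of 4 sham mice, and the hemisphere on the side of the occlusion from 4 stroke mice, without olfactory bulb and cerebellum, were pooled by condition, and nuclei from each pool gave 1 scATAC-seq library. The mice were wild-type C57BL/6J males of 8 to 12 weeks, and stroke brains were taken 48 h after middle cerebral artery occlusion and reperfusion (MCAO/R). The controls were sham-operated mice, and no group carried a transgene. With 1 library per condition, no comparison had a replicate and no test was made. All intervals are exact 95% intervals that cover counting error at most. Fragments of the same nucleus are not independent, so the true spread is wider. The sham tissue was whole brain and the stroke tissue 1 hemisphere, and this cannot be told apart from stroke itself.

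The family carries signals from secreted growth factors across the membrane. PDGFRα, encoded by Pdgfra, drives the growth of oligodendrocyte precursor cells (OPCs) and is also made by fibroblasts, whereas PDGFRβ, encoded by Pdgfrb, is required for the recruitment of pericytes to vessels. KIT is the receptor of stem cell factor, known from mast cells, melanocytes and blood progenitors. KDR (VEGF receptor 2) is the main signalling receptor for VEGF-A in endothelium, FLT1 (VEGF receptor 1) binds VEGF tightly and limits that signal, and FLT4 (VEGF receptor 3) serves VEGF-C and is best known in lymphatic endothelium. In scATAC-seq, the Tn5 transposase cuts open chromatin, so a fragment reports accessibility and not RNA or protein.

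The sham library held 76959104 fragments and the stroke library 96465679. A nucleus was kept if it was called as a cell and had over 20% of its fragments in peaks, which left 6817 of 6979 sham barcodes (97.7%) and 5054 of 8740 stroke barcodes (57.8%), 11871 nuclei in all. The filter therefore removed 162 sham and 3686 stroke barcodes, and the called stroke barcodes had a median of 24.8% of fragments in peaks against 38.5% in sham. Median depth of the kept nuclei was 10356 fragments in sham and 9898 in stroke. Both libraries shared 42 kept barcode sequences (0.616% of sham and 0.831% of stroke barcodes).

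Nuclei were sorted into classes in 2 ways. In the gate, a nucleus entered a class when its fragments over a fixed list of marker genes exceeded a Poisson expectation, and no member was a marker. The gate left 9972 kept nuclei in no class and 137 in more than 1. When the gate was drawn from alternate markers, the markers left out were highest in their own class for 7 of 12 classes and not for the OPC, mural, VLMC (vascular and leptomeningeal cell), choroid plexus and Adarb2 interneuron classes, so those 5 are called only by their gate. Clusters of nuclei were therefore added after the gate had been seen, without any gene within 1 Mb of a member among the features. Named clusters are marked "-like". The OPC-like class held 232 nuclei, with 9 of 10 markers at least 1.5-fold higher than in all other nuclei. The endothelial-like class held 102 nuclei with 15 of 16 markers higher, the VLMC-like class 164 nuclei with 13 of 14, and the Lhx6 interneuron-like class 779 nuclei with 7 of 7. In the last class 6 of 10 markers of Adarb2 interneurons, another GABAergic class, were also at 1.5-fold or more (413 CPM against 213, none at 0). No cluster met the criteria for a mural cell name.

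Pdgfra, Kit and Kdr lie next to each other on chromosome 5 (GRCm38.p6, the mm10 build), at chr5:75152292-75198215 and chr5:75574916-75656722 on the plus strand and chr5:75932827-75978458 on the minus strand. A stretch of 377 kb separates Pdgfra from Kit, and 276 kb separates the end of Kit from the end of Kdr. Flt1 lies farther along the same chromosome at chr5:147561604-147726011 on the minus strand. Flt4 lies at chr11:49609263-49652739 on the plus strand. Gene bodies ran from 39.9 kb for Pdgfrb to 164 kb for Flt1.

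The windows below were the most open or among the 3 most open windows of 300 bases in a class, and are shown because cut sites per 1000000 fragments were higher there in that class than in other nuclei. They are reference sequence, printed 5′ to 3′ on the strand of the gene. Capitals mark matches, on either strand, to 6 short motifs that were searched: AGGAAG (an ETS core), ACAAAG and ACAATG (SOX forms), CAGCTG (an E-box), TGTTTA (a FOX core) and TGACTCA (AP-1). SOX and FOX matches can overlap, as they do in the Kdr window. Of 32851 RefSeq promoters of the same length, 35.4% held AGGAAG, 18.7% ACAAAG, 12.6% ACAATG, 16.3% CAGCTG, 13.4% TGTTTA and 5.20% TGACTCA. A match is a string of letters and not a bound site.
Pdgfra, OPC-like, coding exon 11.3 kb from the start, chr5:75163492-75163791, plus strand: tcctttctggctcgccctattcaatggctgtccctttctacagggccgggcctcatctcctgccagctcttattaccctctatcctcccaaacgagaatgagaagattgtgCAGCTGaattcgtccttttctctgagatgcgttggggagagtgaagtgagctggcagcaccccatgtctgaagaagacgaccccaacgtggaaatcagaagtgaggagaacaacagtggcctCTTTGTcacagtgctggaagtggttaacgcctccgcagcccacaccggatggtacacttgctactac
Pdgfra, VLMC-like, intergenic 63.5 kb from the start, chr5:75215692-75215991, plus strand: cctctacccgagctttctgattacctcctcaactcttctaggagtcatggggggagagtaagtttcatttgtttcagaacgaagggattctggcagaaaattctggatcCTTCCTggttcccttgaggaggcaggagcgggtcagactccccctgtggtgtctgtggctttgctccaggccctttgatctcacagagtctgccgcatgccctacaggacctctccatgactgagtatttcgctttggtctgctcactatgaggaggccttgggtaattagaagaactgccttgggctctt
Kit, Lhx6 interneuron-like, coding exon 74.6 kb from the start, chr5:75649416-75649715, plus strand: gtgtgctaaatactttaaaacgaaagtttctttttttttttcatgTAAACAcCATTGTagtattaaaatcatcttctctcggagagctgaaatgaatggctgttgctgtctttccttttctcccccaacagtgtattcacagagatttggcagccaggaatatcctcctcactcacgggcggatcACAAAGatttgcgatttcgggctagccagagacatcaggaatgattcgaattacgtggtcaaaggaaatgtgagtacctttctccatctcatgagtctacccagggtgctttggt
Kdr, endothelial-like, intergenic 55.6 kb from the start and past the gene end, chr5:75922727-75923026, minus strand: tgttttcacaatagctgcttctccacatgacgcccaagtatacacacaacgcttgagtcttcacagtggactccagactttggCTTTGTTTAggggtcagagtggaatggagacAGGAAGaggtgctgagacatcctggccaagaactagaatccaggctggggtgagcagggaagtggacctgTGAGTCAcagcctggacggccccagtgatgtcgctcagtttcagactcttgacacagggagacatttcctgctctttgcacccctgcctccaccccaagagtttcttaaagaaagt
Flt1, endothelial-like, intron 67.9 kb from the start, chr5:147658004-147658303, minus strand: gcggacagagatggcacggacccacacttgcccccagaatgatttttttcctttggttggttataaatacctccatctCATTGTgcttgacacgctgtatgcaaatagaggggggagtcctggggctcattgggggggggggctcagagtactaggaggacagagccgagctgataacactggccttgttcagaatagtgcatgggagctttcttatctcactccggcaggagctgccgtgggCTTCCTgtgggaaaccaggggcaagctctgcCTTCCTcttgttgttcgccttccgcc
Flt4, endothelial-like, intron 4.15 kb from the start, chr11:49613263-49613562, plus strand: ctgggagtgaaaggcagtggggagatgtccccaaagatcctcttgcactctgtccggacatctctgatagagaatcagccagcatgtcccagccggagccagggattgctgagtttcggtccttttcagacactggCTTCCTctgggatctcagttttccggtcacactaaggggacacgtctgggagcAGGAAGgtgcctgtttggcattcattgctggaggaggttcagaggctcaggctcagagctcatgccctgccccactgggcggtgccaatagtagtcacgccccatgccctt
Flt4, spiny projection neuron-like, noncoding transcript exon 18.2 kb from the start, chr11:49627363-49627662, plus strand: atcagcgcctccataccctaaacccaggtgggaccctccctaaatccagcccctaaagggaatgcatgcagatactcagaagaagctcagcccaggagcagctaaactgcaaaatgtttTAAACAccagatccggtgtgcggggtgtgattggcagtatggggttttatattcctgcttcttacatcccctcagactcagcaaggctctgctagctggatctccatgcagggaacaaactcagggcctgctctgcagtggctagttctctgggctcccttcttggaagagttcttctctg
The 3 endothelial-like windows shown each held AGGAAG on 1 strand or the other, once for Kdr and 2 times each for Flt1 and Flt4. The VLMC-like Pdgfra window held it as well, 1 time. For Flt1 and Flt4 the window shown ranked second by cut sites, and the leading windows were not searched. These windows are intronic or intergenic, so the promoter shares are not a matched background. Only the Kdr window of the 7 held the AP-1 string.

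Over all kept nuclei, the members differed little between sham and stroke, and fewer nuclei of a class cannot be told apart from less accessibility per nucleus. Kdr had the largest ratio, at 13.1 CPM in sham and 17.8 in stroke, a ratio of 1.36 (1.24 to 1.49). Flt1 was 37.8 and 43.4 (ratio 1.15, 1.09 to 1.21), and Pdgfra was 18.9 and 20.8 (1.10, 1.02 to 1.19). Kit had nearly equal levels of 31.2 and 30.9 (0.990, 0.928 to 1.06), as did Pdgfrb at 45.9 and 47.2 (1.03, 0.977 to 1.08). Flt4 alone was lower in stroke with an interval below 1, at 26.1 and 23.3 (0.894, 0.831 to 0.961). No member reached 1.5-fold in either direction, a size that 11.5% of 20952 genes reached as higher and 0.372% as lower, and the median ratio over all genes was 0.981. Composition differed between the libraries: glutamatergic neuron-like nuclei made up 33.0% of sham and 21.7% of stroke nuclei, and microglia and other myeloid-like nuclei 0.425% and 3.52%. Without the filter on fragments in peaks, the Kdr ratio was 1.56 and the Pdgfrb ratio 0.839. In promoters alone, the Pdgfra ratio was 1.57 and the Flt4 ratio 1.47, the opposite direction to its gene body.

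Compared per kb of window over all kept nuclei, Pdgfrb was the most accessible member at 1.11 CPM per kb. Flt4 followed at 0.548, Pdgfra at 0.411, Kit at 0.371, Kdr at 0.316 and Flt1 at 0.241. In endothelial-like nuclei the order was different, with Kdr at 2.86 CPM per kb, Flt1 at 2.74 and Flt4 at 1.98. Kit came between Flt4 and Pdgfrb, which stood at 0.780. In OPC-like nuclei Pdgfra stood at 3.21 and each other member between 0.219 and 0.545.

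**Figure D1:**
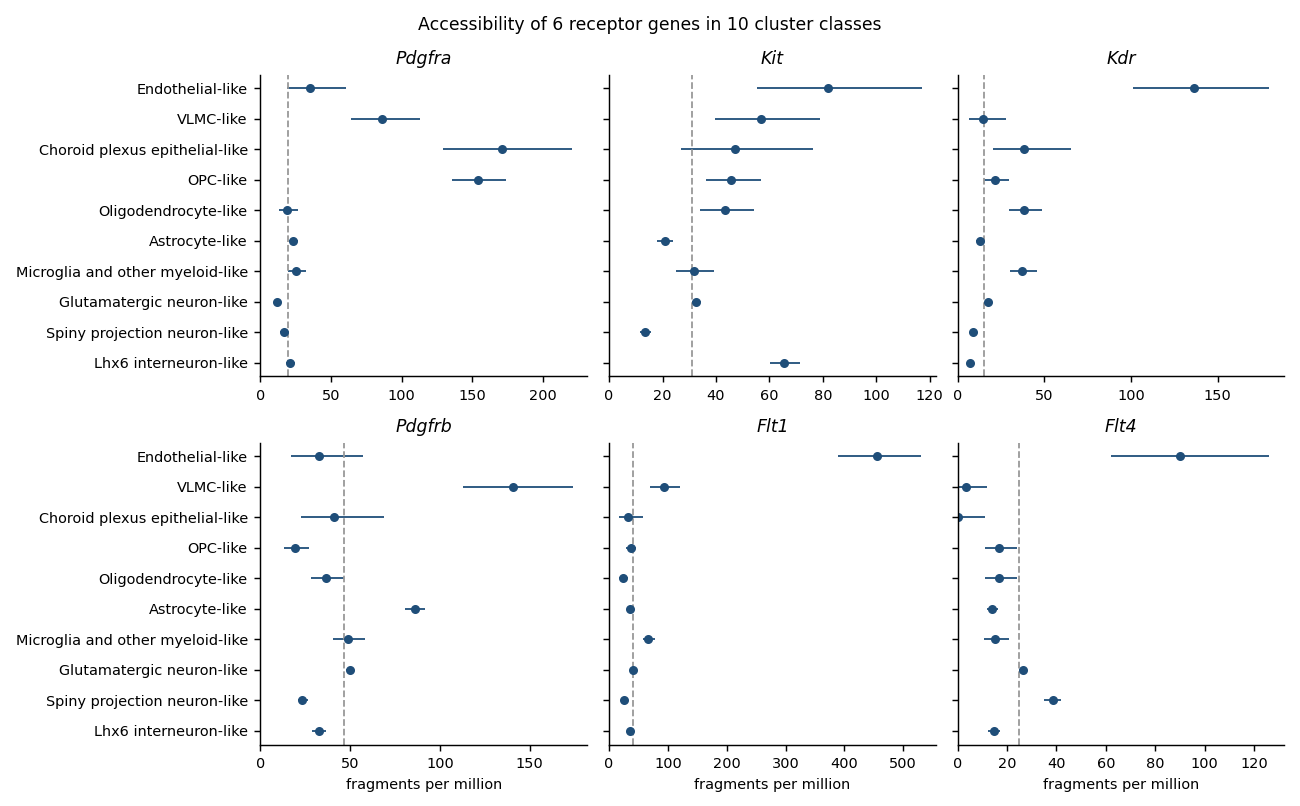
CPM (fragments per 1000000) over each receptor gene (x axis, linear) in 10 named cluster classes (rows), both libraries pooled. Points are levels, bars exact 95% counting intervals and the dashed line the level over all kept nuclei; Pdgfra is highest in choroid plexus epithelial-like and OPC-like nuclei, and Kdr, Flt1 and Flt4 in endothelial-like nuclei.

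By cluster class, Pdgfra was highest in 3 classes. Choroid plexus epithelial-like nuclei had 171 CPM, OPC-like nuclei 154 and VLMC-like nuclei 86.1, whereas glutamatergic neuron-like nuclei had 11.8. The OPC-like level was 8.63-fold (7.57 to 9.81) that of all other kept nuclei, and the VLMC-like level 4.45-fold (3.32 to 5.83). Choroid plexus and OPC-like nuclei did not differ beyond counting error (ratio 1.11, 0.820 to 1.48), while OPC-like exceeded VLMC-like nuclei 1.79-fold (1.33 to 2.45). At least 2-fold higher accessibility was found for 7.21% of genes in OPC-like, 13.5% in VLMC-like and 14.2% in choroid plexus epithelial-like nuclei.

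The choroid plexus epithelial-like value rested on 58 fragments from 29 of 44 nuclei, of which 43 were from sham. These nuclei held all 11 choroid plexus markers at 1.5-fold or more. The OPC marker list was lower there, at 803 CPM against 975 in the other nuclei, with 1 of 10 markers at 1.5-fold and 2 at 0. The VLMC list was at 424 against 252, with 6 of 14 markers at 1.5-fold and 4 at 0, and its part in the Pdgfra level was not tested. Choroid plexus epithelium lies on a fibroblast stroma, and PDGFRα is a receptor of fibroblasts, but a part of stroma in this level was not tested. None of the 3 most open Pdgfra windows of these nuclei was among the 3 most open of VLMC-like nuclei.

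The OPC-like signal was carried by many nuclei: 128 of 232 held at least 1 Pdgfra fragment, and the richest nucleus held 10 of 266 fragments. In each library apart, OPC-like nuclei stood above the others, with 168 CPM in sham (9.70-fold) and 143 in stroke (7.68-fold). The window with the most cut sites, the fragment ends, lay 11.3 kb into the gene and held 8.24% of the 740 cut sites that OPC-like nuclei had in the gene and 20 kb on either side. This window, which covers a coding exon, had 61 cut sites in OPC-like nuclei and 37 in all the others, so 62.2% of its cut sites came from 1.95% of the nuclei. The next window upstream, at 11 kb, had 31 of its 48 cut sites there. In VLMC-like nuclei the leading window lay 63.5 kb from the start, beyond the gene end, with 18 of 41 cut sites. A window just before the start, at -0.951 kb, was among the 3 most open of both classes, with 18 cut sites in OPC-like and 10 in VLMC-like nuclei. Choroid plexus epithelial-like nuclei were most open in an intron 32 kb from the start, with 13 cut sites. The window with the most cut sites over all kept nuclei was another place, 4.15 kb from the start in a UTR, which held 578.

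Kit was spread over more classes. It was highest in endothelial-like nuclei at 81.8 CPM (2.64-fold, 1.78 to 3.78), on 30 fragments from 16 nuclei, with 44.9 in sham on 5 fragments and 97.8 in stroke on 25 (ratio 2.18, 0.819 to 7.28). The next class was Lhx6 interneuron-like nuclei at 65.6 (2.29-fold, 2.09 to 2.51), on 561 fragments from 234 nuclei. These classes did not differ beyond counting error (1.25, 0.833 to 1.80), and in sham alone the Lhx6 interneuron-like level, 68.7, was the highest and 5 classes stood above endothelial-like nuclei. VLMC-like nuclei followed at 56.9, choroid plexus epithelial-like nuclei at 47.1, OPC-like nuclei at 45.7 and oligodendrocyte-like nuclei at 43.3. Lhx6 marks GABAergic interneurons that arise in the medial ganglionic eminence, but the part of the raised Adarb2 interneuron list in the Kit level was not tested. Only 1.60% of genes were at least 2-fold higher in Lhx6 interneuron-like nuclei, against 14.7% in endothelial-like nuclei. Spiny projection neuron-like nuclei, the other GABAergic class named here, had the lowest Kit level, 13.6 (0.413-fold).

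The Lhx6 interneuron-like value was 68.7 in sham and 59.1 in stroke (0.861, 0.713 to 1.04). In Lhx6 interneuron-like nuclei the cut sites were spread thinly over Kit. The 3 most open windows held 26 or 27 of 1269 cut sites each, 6.30% together. One of them, 74.6 kb into the gene, had 30.3% of its 89 cut sites in these nuclei, which were 6.56% of all. When each nucleus was counted at most once, the fold was 1.5, and in clusters at a lower resolution it was also 1.5.

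Kdr and Flt1 were led by endothelial-like nuclei by a wide margin. Kdr reached 136 CPM there (9.28-fold, 6.87 to 12.3), 3.56 times (1.91 to 7.15) the next class. The next 3 classes, choroid plexus epithelial-like at 38.2, oligodendrocyte-like at 38.1 and microglia and other myeloid-like at 37.2, did not differ among neighbours in the order. The oligodendrocyte-like level was 2.59-fold (1.99 to 3.31) that of other nuclei and the myeloid-like level 2.55-fold (2.05 to 3.14), in classes where 8.85% and 11.3% of genes were at least 2-fold higher. Kdr was lowest in Lhx6 interneuron-like nuclei, at 7.02.

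Flt1 reached 455 CPM in endothelial-like nuclei (11.7-fold, 9.96 to 13.6), the largest fold of any member in any named class. It was 4.91 times (3.62 to 6.76) the VLMC-like level of 92.6, and microglia and other myeloid-like nuclei followed at 66.5. In VLMC-like nuclei the endothelial marker list was at 439 CPM against 333 in the others. There 6 of its 16 markers were at 1.5-fold or more and 1 at 0, and its part in the Flt1 level was not tested. Oligodendrocyte-like nuclei, among the higher classes for Kdr, were the lowest for Flt1 at 23.7. Flt1 fragments were found in 63 of 102 endothelial-like nuclei although their median depth, 2656 fragments, was lower than in every other named class but VLMC-like nuclei.

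The windows most open in endothelial-like nuclei held a minor share of the class's cut sites, 25% for the 3 most open windows of Kdr and 12.4% for those of Flt1, counted over the gene and 20 kb on either side. Windows were chosen by their cut sites in the class, and folds and intervals given for windows here and below take no account of that choice. Both ends of a fragment are counted and are not independent, so window intervals can be too narrow even for counting error. For Kdr, the window past the gene end at 55.6 kb held 18 of its 54 cut sites in endothelial-like nuclei (172-fold, 91.7 to 310.1). These came from 12 nuclei. The window just before the start, at -0.218 kb, held 11. For Flt1, a window 67.9 kb into the gene held 17 of 27 cut sites, from 9 nuclei. Thus 63.0% of its cut sites came from 0.859% of the nuclei (583-fold, 252 to 1426). A second intronic window, 136 kb from the start, held 19. VLMC-like nuclei were most open elsewhere in Flt1, at 11.2 kb, with 17 of 46 cut sites. Myeloid-like nuclei were most open 184 kb from the start, past the Flt1 end in an intron of Pan3, with 30 of 96.

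Flt4 was led by endothelial-like nuclei at 89.9 CPM (3.64-fold, 2.50 to 5.12), on 33 fragments from 19 nuclei. Spiny projection neuron-like nuclei, the principal GABAergic neurons of the striatum, came second at 38.4 (1.64-fold, 1.49 to 1.81), on 490 fragments from 273 nuclei. The place was held in sham, at 43.0, whereas in stroke these nuclei (27.4) and glutamatergic neuron-like nuclei (27.8) were close. This fold was under the 2-fold mark, which 2.35% of genes passed in that class. VLMC-like nuclei held 2 fragments and choroid plexus epithelial-like nuclei 0, where the upper bound was 10.9 CPM. The order below glutamatergic neuron-like nuclei (26.5) was not resolved down to astrocyte-like nuclei (13.9), since no neighbours there from OPC-like nuclei on differed beyond counting error.

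Endothelial-like and spiny projection neuron-like nuclei were open at different Flt4 windows. In endothelial-like nuclei these lay in an intron 4.15 kb from the start, with 10 cut sites of 42, and 50 kb from the start beyond the gene end, with 11 of 46. In spiny projection neuron-like nuclei the leading window lay 18.2 kb from the start, with 61 of 115 cut sites from 36 nuclei.

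Pdgfrb, at chr18:61045150-61085061 on the plus strand, was highest in VLMC-like nuclei at 141 CPM (3.07-fold, 2.46 to 3.80), followed by astrocyte-like nuclei at 86.0 (2.00-fold, 1.86 to 2.15), a size that 6.99% of genes reached in astrocyte-like nuclei. VLMC-like exceeded astrocyte-like nuclei 1.64-fold (1.30 to 2.05). OPC-like nuclei, high for Pdgfra, were the lowest for Pdgfrb at 19.1. The mural marker list was also raised in VLMC-like nuclei, with 7 of 12 markers at 1.5-fold or more, none at 0, and a summed level of 411 against 181 in the others, and its part in the Pdgfrb level was not tested. In astrocyte-like nuclei 2 of 12 mural markers were raised, at a summed level of 244 against 176 in the others, and their part was not tested. There the Pdgfrb start itself was open: the window at the start held 198 cut sites in astrocyte-like nuclei and 162 in all the others (13.9-fold, 11.2 to 17.2), in 100 nuclei. VLMC-like nuclei had 21 cut sites in the same window and 16 in a window 18.1 kb before the start, in an intron of Cdx1.

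**Figure D2:**
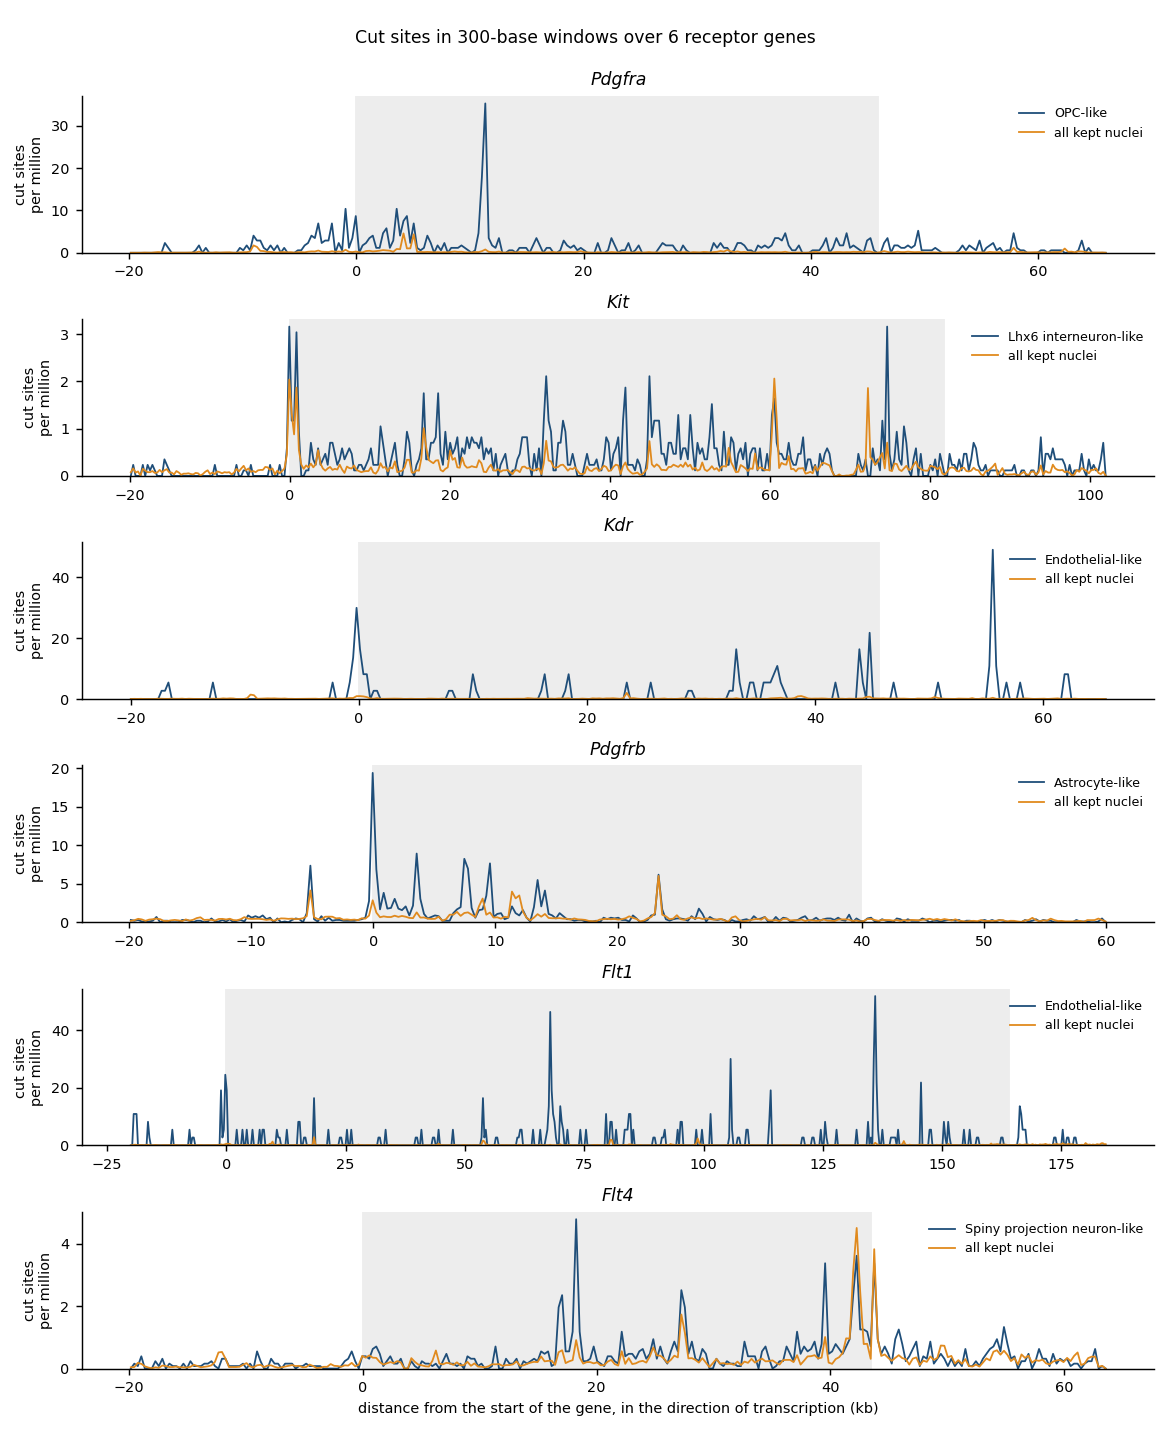
Cut sites per 1000000 fragments in windows of 300 bases (y axis) against the distance from the start of each gene in kb (x axis), in a class chosen for each gene (blue) and in all kept nuclei (orange). Grey marks the gene body; the Pdgfra line for OPC-like nuclei peaks 11.3 kb from the start, and the Pdgfrb line for astrocyte-like nuclei at the start.

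Across the Pdgfra, Kit and Kdr region, OPC-like nuclei were most open at Pdgfra and endothelial-like nuclei at Kdr. In bins of 10 kb, the 3 highest bins of OPC-like nuclei ran from -10 to 20 kb around the Pdgfra start, at 40.5 to 46.3 CPM, against a median bin of 2.89. In endothelial-like nuclei the highest bins were 820 to 830 kb (46.3), which holds the Kdr start, and 770 to 790 kb (40.9 each), which holds the Kdr end, against a median bin of 5.45. In Lhx6 interneuron-like nuclei the highest bin, at 100 to 110 kb, had 11.2 against a median of 2.92, and none of the 3 highest lay inside Kit. The bins centred at 425 to 495 kb, which lie over Kit, were all above that median, at 5.85 to 9.47.

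Several neighbouring genes also differed between classes. Lnx1, an E3 ubiquitin ligase gene before Pdgfra, was 2.43-fold (2.11 to 2.78) higher in OPC-like nuclei and Chic2 1.92-fold (1.52 to 2.38). Chic2 was 2.27-fold (1.40 to 3.47) higher in endothelial-like nuclei. Clock, the circadian regulator beyond Kdr, was at 0.944-fold in OPC-like and 1.10-fold in endothelial-like nuclei. Past the start of Kdr, Srd5a3 and Tmem165 were also within 2-fold in both classes. In oligodendrocyte-like nuclei Pdcl2 was 5.89-fold (4.35 to 7.83) and Nmu, the neuromedin U gene, 3.24-fold (2.24 to 4.55) higher, above the 2.59-fold of Kdr there. Nmu was at 1.59 (1.38 to 1.83) between stroke and sham, past 1.5-fold like 11.5% of all genes. Gsx2 was 4.42-fold (1.42 to 10.5) higher in VLMC-like and 2.20-fold (0.876 to 4.61) in OPC-like nuclei, on 5 and 7 fragments.

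**Figure D3:**
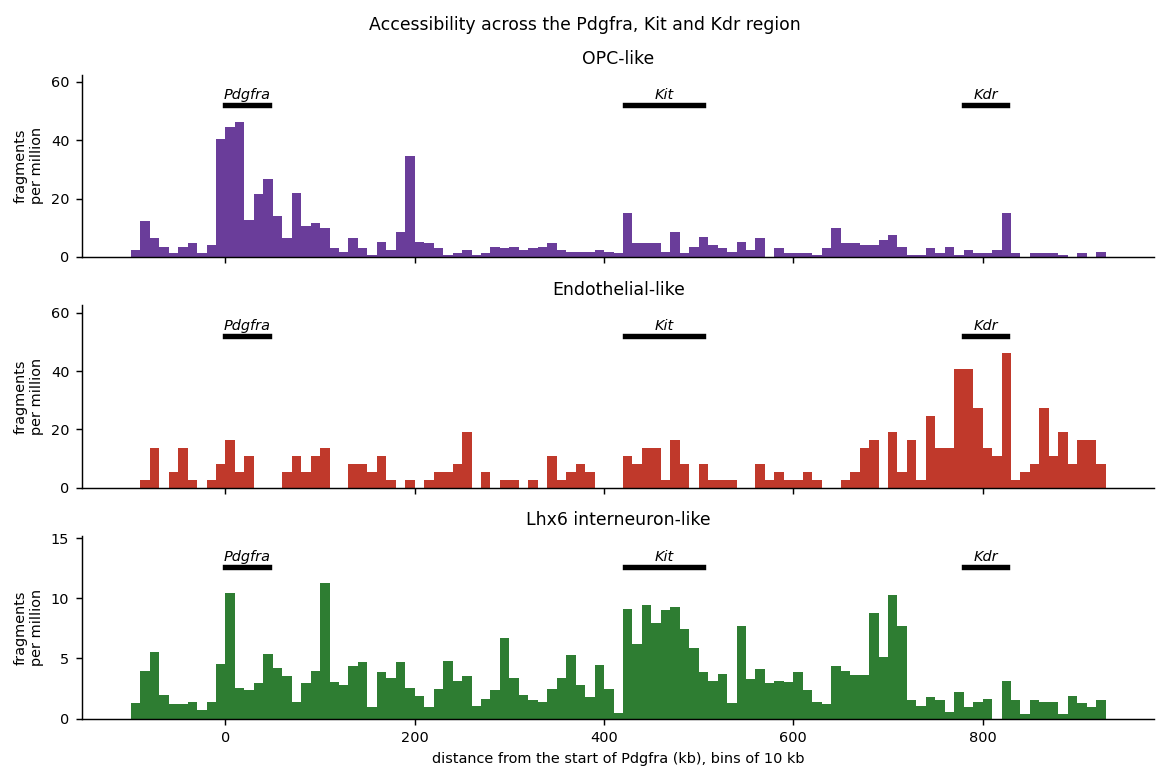
CPM (fragments per 1000000) in bins of 10 kb (y axis) across the Pdgfra, Kit and Kdr region, by distance from the start of Pdgfra in kb (x axis), in 3 cluster classes. Black bars mark the 3 genes; OPC-like nuclei are highest around the Pdgfra start and endothelial-like nuclei at both ends of Kdr.

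Within cluster classes, 39 of 53 stroke over sham ratios of the members had intervals that held 1, 7 lay above it and 7 below. Among all genes with at least 20 fragments in these classes, 8.90% of intervals lay above 1 and 12.1% below. Pdgfra in OPC-like nuclei was 168 CPM in sham and 143 in stroke (0.850, 0.663 to 1.09), Kdr in endothelial-like nuclei was 153 and 129 (0.845, 0.458 to 1.62), and Flt4 there was 89.8 and 90.0 (1.0, 0.459 to 2.36). Pdgfra was 117 and 75.0 in VLMC-like nuclei (0.639, 0.354 to 1.19), and Pdgfrb was 136 and 143 (1.05, 0.642 to 1.80). In the same nuclei the mural list was 599 and 344 CPM (0.574, 0.443 to 0.747), the choroid plexus list 315 and 143 (0.455, 0.310 to 0.670) and the endothelial list 296 and 489 (1.65, 1.20 to 2.31), and their part in both ratios was not tested. Pdgfrb was 87.3 and 84.6 in astrocyte-like nuclei (0.969, 0.847 to 1.11).

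Flt1 in endothelial-like nuclei was the 1 leading class of a member with a ratio whose interval lay below 1. It was 683 CPM in 42 sham nuclei and 356 in 60 stroke nuclei, a ratio of 0.522 (0.380 to 0.717). In the same nuclei 23.8% of 3945 genes were at least 1.5-fold lower. The 16 endothelial markers together were also lower in stroke, at 3117 CPM in sham and 2152 in stroke (0.690, 0.602 to 0.792), the OPC list was 467 and 809.9 (1.73, 1.27 to 2.40), the oligodendrocyte list 162 and 293 (1.81, 1.07 to 3.23) and the astrocyte list 153 and 266 (1.74, 1.01 to 3.16), and median depth was 1962 in sham and 3465 in stroke. Over both libraries, the OPC list in endothelial-like nuclei was 706 CPM against 975 in the other nuclei. The oligodendrocyte list was 253 against 284 and the astrocyte list 232 against 544. The part of the lists and of depth in the Flt1 ratio was not tested. Pdgfrb in endothelial-like nuclei was 71.9 and 15.6 (0.218, 0.0480 to 0.813), on 8 and 4 fragments.

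In neurons, Flt4 in spiny projection neuron-like nuclei was 43.0 CPM in sham and 27.4 in stroke (0.638, 0.508 to 0.795), and 5.83% of genes were at least 1.5-fold lower in that class. Its leading window, 18.2 kb from the start, had 54 cut sites in sham and 7 in stroke (0.315, 0.121 to 0.693). The 13 spiny projection neuron markers together were at 2267 and 1682 CPM (0.742, 0.721 to 0.763), and their part was not tested. In promoters alone the Flt4 ratio was 1.21. Pdgfrb in Lhx6 interneuron-like nuclei was 38.3 and 21.3 (0.556, 0.410 to 0.744), where 6.59% of genes were at least 1.5-fold lower and the 7 Lhx6 interneuron markers together were at 0.985 (0.922 to 1.05). The Adarb2 interneuron list was lower in the same stroke nuclei, at 448 and 340.1 CPM (0.760, 0.704 to 0.819), and its part was not tested. Kdr in glutamatergic neuron-like nuclei was 15.4 and 22.4 (1.45, 1.25 to 1.68), just under 1.5-fold. In these nuclei 9 of the 12 marker lists had intervals off 1. Among them were the choroid plexus list at 1.26 (1.19 to 1.33), the VLMC list at 1.12 (1.08 to 1.16) and the glutamatergic list at 0.950 (0.931 to 0.969). The endothelial list was at 1.01 (0.981 to 1.05). The part of the lists was not tested.

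In OPC-like nuclei, Kdr was 9.04 CPM in sham and 31.5 in stroke (3.48, 1.5 to 9.39), on 7 and 30 fragments, where 11.9% of genes were at least 1.5-fold higher. The endothelial marker list was 303 and 298 CPM in these nuclei. Flt1 went the other way there, at 49.1 and 26.2 (0.534, 0.309 to 0.908), where 14.7% of genes were at least 1.5-fold lower. In microglia and other myeloid-like nuclei, Pdgfra was 67.9 and 20.4 (0.30, 0.171 to 0.550) and Kit 60.3 and 28.3 (0.470, 0.268 to 0.870), where 16.3% of genes were at least 1.5-fold lower. The class held 29 sham nuclei with a median of 4924 fragments, against 13401 in stroke, and 1 sham nucleus gave 14 of the 18 sham Pdgfra fragments and 1 gave 10 of the 16 sham Kit fragments. Without the nucleus richest in the gene the ratio turned, to 1.25 (0.455 to 4.77) for Pdgfra and 1.23 (0.534 to 3.47) for Kit. In myeloid-gated nuclei Pdgfra was 12.3 and 25.6 (2.09, 1.20 to 3.85) and Kit 17.6 and 26.3 (1.49, 0.924 to 2.50). The myeloid marker list was 1.23 (1.10 to 1.37) and the OPC list 0.863 (0.754 to 0.992) in the cluster, the spiny projection neuron list was 0.728 (0.619 to 0.862), and their part was not tested. In oligodendrocyte-like nuclei Kit was 29.4 and 51.5 (1.75, 1.02 to 3.12) and Pdgfrb 21.7 and 45.0 (2.08, 1.13 to 4.07), where 12.1% of genes were at least 1.5-fold higher. A single stroke nucleus gave 20 of the 75 Kit fragments, and without it the ratio was 1.14 (0.637 to 2.1). For Pdgfrb it was 1.68 (0.892 to 3.35) without the richest nucleus. The OPC (1.21), VLMC (1.26) and Lhx6 interneuron (1.41) lists were higher in the same stroke nuclei, and their part was not tested. Smaller ratios with intervals above 1 were those of Flt1 in astrocyte-like (1.30, 1.05 to 1.60) and spiny projection neuron-like nuclei (1.35, 1.07 to 1.71) and of Pdgfra in the latter (1.36, 1.01 to 1.82). Of the 12 marker lists, 8 had intervals off 1 in each of these classes, among them the endothelial list in astrocyte-like (1.10, 1.03 to 1.18) and the Adarb2 interneuron list in spiny projection neuron-like nuclei (1.25, 1.16 to 1.36), and their part was not tested. Without the richest nucleus, 7 of the 14 intervals off 1 came to hold it and 1 more, Flt4 in astrocyte-like nuclei (0.812, 0.573 to 1.15), came to lie below it (0.628, 0.429 to 0.911). Those lost were in oligodendrocyte-like and myeloid-like nuclei, and Flt1 in OPC-like (0.601, 0.343 to 1.04) and spiny projection neuron-like nuclei (1.23, 0.962 to 1.56) and Pdgfrb in endothelial-like nuclei (0.325, 0.0645 to 1.51). Flt1 in endothelial-like nuclei was then 0.569 (0.409 to 0.794), Flt4 in spiny projection neuron-like nuclei 0.679 (0.539 to 0.848) and Kdr in OPC-like nuclei 2.98 (1.25 to 8.17).

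**Figure D4:**
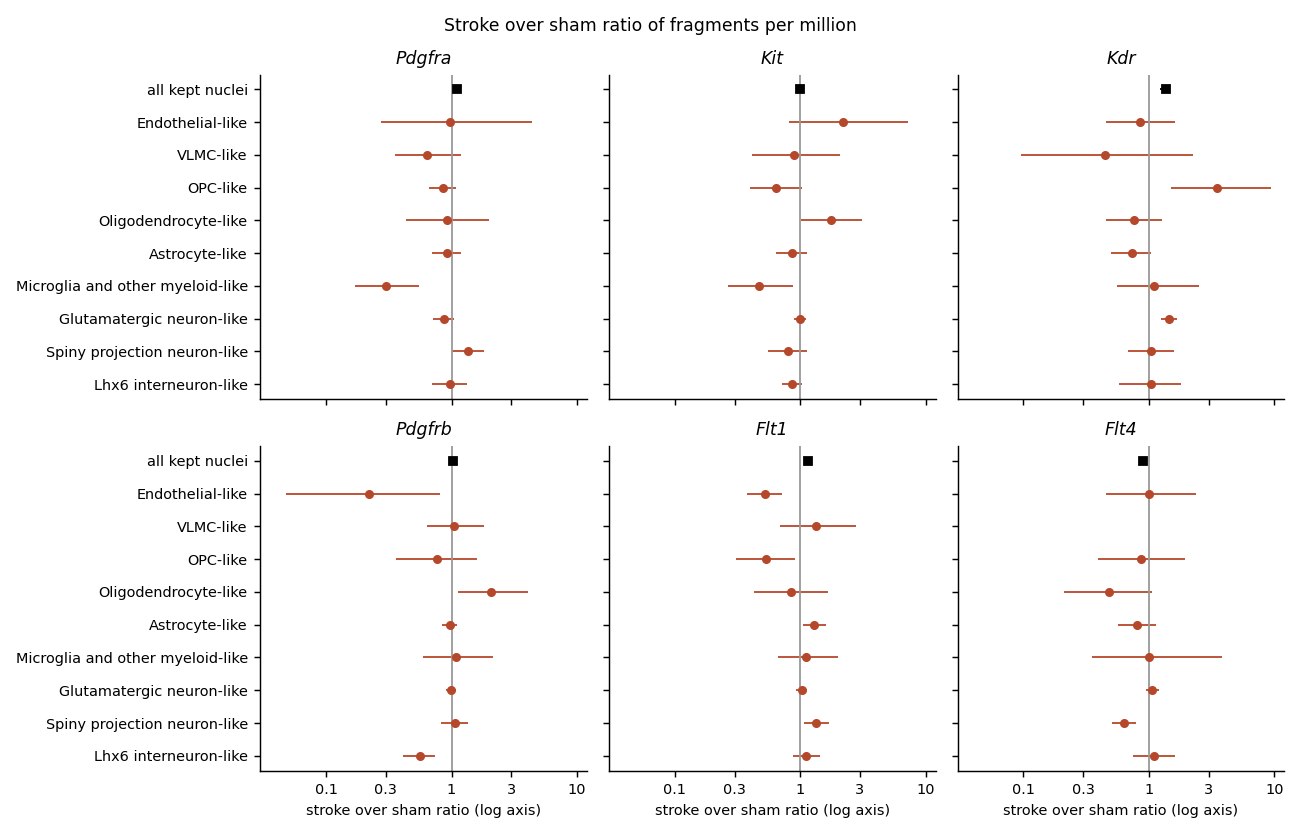
Stroke over sham ratio of CPM (x axis, log scale) for each receptor gene in all kept nuclei (black squares) and in 9 cluster classes (red circles), with exact 95% counting intervals. VLMC-like Flt4 has no point, since sham held no fragment; Flt1 in endothelial-like nuclei lies at 0.522.

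In the gated classes, the differences between classes were smaller. Pdgfra was highest in OPC-gated nuclei, at 62.7 CPM in 98 nuclei (3.25-fold, 2.55 to 4.08), where 3.78% of genes were at least 2-fold higher. Choroid plexus-gated nuclei were next at 58.4, within counting error (1.07, 0.761 to 1.52). The order turned between libraries, since choroid plexus-gated nuclei stood at 70.6 in sham and 18.9 in stroke, and OPC-gated nuclei at 46.6 and 93.2. Endothelial-gated nuclei led for Kdr at 32.8 (2.21-fold, 1.63 to 2.95), for Flt1 at 105 (2.67-fold, 2.26 to 3.14) and for Flt4 at 34.2 (1.38-fold, 1.02 to 1.82), against a background of 4.35%. The lead was within counting error for Kdr, over choroid plexus-gated nuclei at 32.3 (ratio 1.01, 0.645 to 1.61; 40 in sham, above endothelial-gated nuclei, and 7.57 in stroke), and for Flt4, over oligodendrocyte-gated nuclei at 31.6 (1.08, 0.715 to 1.63). Kit was led by VLMC-gated nuclei at 38.4 (1.24-fold, 0.929 to 1.61; background 4.44%), with the Adarb2 interneuron-gated nuclei at 38.1. Pdgfrb was led by glutamatergic-gated nuclei at 106 (2.35-fold, 2.07 to 2.65; background 1.89%), whereas glutamatergic neuron-like clusters were at 49.7 (1.11-fold). The 57 mural-gated nuclei had Pdgfrb at 33.9 (22.3 to 49.3), on 27 fragments, against 46.5 over all kept nuclei. By library, the leading gated class also changed for Kit (Adarb2 interneuron 44.4 in sham, endothelial 50.5 in stroke), Pdgfrb (glutamatergic 115 in sham, VLMC 117 in stroke) and Flt4 (spiny projection neuron 33.5 in sham, endothelial 48.5 in stroke). Flt1 was led by endothelial-gated nuclei in both.

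Gated and clustered nuclei also differed in the direction of several stroke over sham ratios. Pdgfra in OPC-gated nuclei was 46.6 in sham and 93.2 in stroke (2.00, 1.24 to 3.22), on 37 and 39 fragments, against 0.850 in the OPC-like cluster. Kdr in endothelial-gated nuclei was 24.8 and 48.5 (1.96, 1.06 to 3.60), and Flt1 there was 85.7 and 143 (1.67, 1.20 to 2.33), against 0.845 and 0.522 in the endothelial-like cluster. In VLMC-gated nuclei Pdgfra was 19.4 and 41.1 (2.12, 1.09 to 4.26), against 0.639 in the cluster, and Pdgfrb 42.4 and 117 (2.76, 1.81 to 4.26), against 1.05. Kit in endothelial-gated nuclei was 13.4 and 50.5 (3.76, 1.85 to 8.01), in the same direction as the 2.18 of the cluster. The ratio lay on opposite sides of 1 in gate and clusters for Kdr and Flt1 in the endothelial classes. It did so too, among others, for Pdgfra in the OPC, VLMC and myeloid classes and for Kit in the myeloid ones. Of these, both intervals lay off 1 only for Flt1 and for Pdgfra in the myeloid classes. The myeloid-like Pdgfra ratio turned to 1.25 (0.455 to 4.77) without its richest nucleus. The cluster interval held 1 for Kdr and for Pdgfra in OPC-like and VLMC-like nuclei, and the gate interval did for Kit. Some windows were high in both. In OPC-gated nuclei the Pdgfra window at 11.3 kb was the most open, with 13 cut sites from 5 nuclei. In endothelial-gated nuclei the most open Kdr window was the one at 55.6 kb, with 10 from 7 nuclei. The Flt1 window at 67.9 kb, second in the cluster, had 12 from 5 nuclei, as many cut sites as a window at 18.4 kb. Other windows were not shared. The OPC-gated Pdgfra windows ranked next, at 4.15 and -9.05 kb, were not among the 3 most open of the OPC-like cluster. The leading endothelial-gated Flt4 window, at 43.7 kb, was not among the 3 most open of the endothelial-like cluster. Gate and clusters sort the same kept nuclei, and their overlap was not counted, so these are not separate readings.

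**Figure D5:**
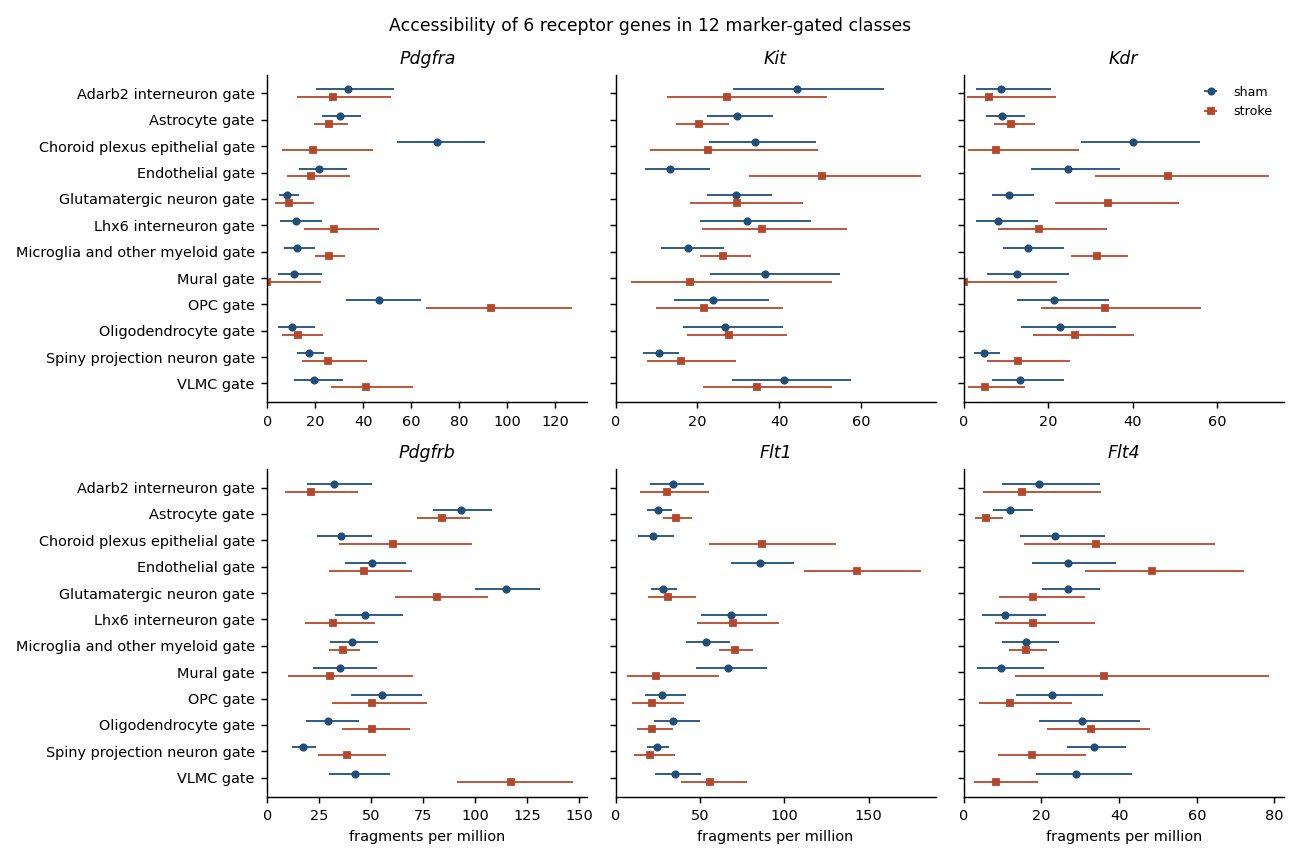
CPM (fragments per 1000000) over each receptor gene (x axis, linear) in the 12 marker-gated classes (rows), in sham (blue circles) and stroke (red squares), with exact 95% counting intervals. OPC-gated nuclei have Pdgfra at 46.6 in sham and 93.2 in stroke.

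Ligands, coreceptors, adaptors and feedback inhibitors of the family, a list of 31 genes, were read in the same way. In endothelial-like nuclei 9 were at least 2-fold higher and 1 lower, beside 14.7% of all genes higher and 31.8% lower, and the list's median was 1.05 against 0.840 over all genes. Tek, the angiopoietin receptor kinase, was 13.4-fold (10.5 to 16.8) higher there. The ligand genes Pdgfd (4.29-fold), Pdgfb (2.86-fold, the pericyte-recruiting ligand made by endothelium), Kitl (2.49-fold) and Vegfc (2.17-fold) were also higher.

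In OPC-like nuclei 4 of the 31 genes were at least 2-fold higher and 3 lower, beside 7.21% and 12.6% of all genes. Gab1, a docking adaptor, was 3.20-fold (2.83 to 3.60) higher, and the feedback inhibitors Spry4 and Spry1 were 2.97-fold and 2.03-fold higher. Pdgfb was the lowest, at 0.192-fold (0.112 to 0.308). In astrocyte-like nuclei 6 of the 31 genes were at least 2-fold higher and 2 lower, beside 6.99% of all genes higher. Of the 6 feedback inhibitors, 3 were higher there and 2 in OPC-like nuclei. Astrocyte-like nuclei had the highest ligand values of Pgf (3.26-fold, 2.93 to 3.61) and Vegfa (2.86-fold, 2.64 to 3.09), both ligands of FLT1. In microglia and other myeloid-like nuclei Csf1r, the receptor of colony stimulating factor 1, was 6.77-fold (6.09 to 7.50) higher. Csf1r lies 15.5 kb from Pdgfrb, which was at 1.05-fold in those nuclei. Between stroke and sham over all kept nuclei, 1 of the 31 genes passed 1.5-fold, Gab1, at 41.6 in sham and 67.8 in stroke (1.63, 1.55 to 1.71), beside 11.5% of all genes.

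The genes whose levels over the 10 named cluster classes were most like those of each member, by Pearson r of log2(level + 1), were taken from outside the marker lists and from over 1 Mb away. They were Ywhah for Pdgfra (0.95), Cd55 for Kit (0.92), Gm609 for Kdr (0.95), Ranbp3l for Pdgfrb (0.90), Ift140 for Flt1 (0.97) and Olfr221 for Flt4 (0.97). From 16283 to 16300 genes were compared on 10 points that share libraries, so these values are a description only, and over the 12 gated classes other genes led, such as Lrrc38 for Pdgfra (0.91) and Sh2d3c for Flt1 (0.88).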

How the data were processed

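Nuclei of 1 sham and 1 stroke library, each from 4 pooled brains, were measured by scATAC-seq. Reads were processed by the authors with Cell Ranger ATAC 2.1.0 (build mm10), who deposited, per library, a fragment list and raw counts of fragments and peak fragments per barcode, without normalization. Fragment ends were already shifted to the cut sites. Fragments were counted over gene bodies plus 2 kb upstream (GENCODE M21) and divided by the fragments of the nuclei, with Python 3.11.15, numpy 2.4.6, scipy 1.17.1 and pandas 2.3.3. Ratios used exact conditional binomial intervals and levels exact Poisson intervals.

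Nuclei were gated on 145 markers of 12 classes at a Poisson p under 1e-04, with at least 3 fragments on at least 2 markers. No doublet caller was run. The 137 nuclei with a second gate were left out of the gated classes but stayed in the clusters, 119 of them in named ones. As an alternative chosen after seeing the data, 38 TF-IDF and SVD components of 20627 genes were clustered with leidenalg 0.10.2 at a resolution of 2, with 15 neighbours. Clusters were named where at least 3 markers were detected and no other class had more markers among the 10 leading genes (where none of its own was among them, at least 50% of its markers had to be detected), and the vascular cluster of 452 nuclei was split on 10 components. An alternative without the nucleus richest in the gene was also added then. The naming conditions were also set after clusters had been seen. They refused a name to a cluster with Foxj1, a gene of motile cilia, among its leading genes, as in the Tm4sf1-led cluster of 111 nuclei. A cluster with far fewer fragments per nucleus than its libraries, and no marker of its own among the leading genes, was also left unnamed. Members and gene lists were chosen with earlier results of these data known. Named genes were the members, listed pathway genes past the fold or extreme in their role, coding genes within 500 kb of the Pdgfra to Kdr region, and the genes most like each member. Backgrounds are shares of genes with at least 20 fragments. Counting, ratios, their intervals and clustering were tested on simulated data. Single-cell RNA data were not used here.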

Additional observations from a re-analysis of the deposited data

How the results depend on the processing

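Of 281 recomputed values, 7 reversed, 218 others stayed within the counting interval of the value reported and 56 moved out of it. A value was counted as reversed only where the value reported was at least 1.5-fold between libraries or 2-fold between classes. Values among the 218 and the 56 can therefore also lie on the other side of 1. Flt4 over all kept nuclei did so, at 0.894 over the gene body and 1.47 in promoters. No paired analysis was possible because there was a single library for sham and a single one for stroke, and no replicate could be left out. Over all kept nuclei, the stroke over sham ratio with all called barcodes was 1.14 for Kit, 1.56 for Kdr, 0.839 for Pdgfrb and 1.27 for Flt1; in promoters alone it was 1.57 for Pdgfra, 1.11 for Pdgfrb and 1.47 for Flt4; with each nucleus counted at most once it was 1.10 for Kit and for Pdgfrb.

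The fold of the leading gated class in promoters alone was 5.16 for Pdgfra, 0.580 for Kit, 3.41 for Kdr, 1.84 for Pdgfrb, 6.09 for Flt1 and 0.820 for Flt4. With each nucleus counted at most once it was 2.41 for Pdgfra, 1.29 for Pdgfrb and 1.72 for Flt1. With a gate p under 1e-06 it was 2.42 for Pdgfra and 3.41 for Pdgfrb, from odd markers 2.04 and 1.17, from even markers 2.1 for Pdgfra, and with whole gene body marker windows 2.21 and 1.84. Flt1 was at 3.14 with all called barcodes and 2.00 in nuclei with at least 5000 fragments. In the clusters of the same class, the folds were 8.63 for Pdgfra, 1.84 for Kit, 9.28 for Kdr, 1.11 for Pdgfrb, 11.7 for Flt1 and 3.64 for Flt4.

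The stroke over sham ratio within the leading class reversed in the clusters for Pdgfra (0.850), Kdr (0.845) and Flt1 (0.522), and with even markers for Flt1 (0.897) and Flt4 (0.310). Flt1 was at 2.56 with a gate p under 1e-06. Pdgfrb in glutamatergic-gated nuclei was at 0.382 in promoters, 1.03 with each nucleus at most once, 0.497 with a gate p under 1e-06 and 0.989 in the clusters.

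In the cluster classes, promoter folds were 13.4 for Pdgfra in OPC-like, 13.3 for Pdgfra in VLMC-like, 1.24 for Kit in Lhx6 interneuron-like, 19.5 for Kdr and 26.7 for Flt1 in endothelial-like, 8.41 and 6.17 for Pdgfrb in VLMC-like and astrocyte-like, and 1.48 for Flt4 in spiny projection neuron-like nuclei. With each nucleus at most once, they were 5.83 for Pdgfra in OPC-like, 1.5 for Kit, 7.51 for Flt1 and 1.39 for Flt4 in spiny projection neuron-like nuclei, and at resolution 1 the Kit fold was 1.5. Promoter ratios of stroke over sham were 1.26 for Pdgfra in OPC-like, 0.123 for Pdgfrb in Lhx6 interneuron-like and 0.271 for Flt1 in OPC-like nuclei, and reversed to 1.25 for Pdgfra in VLMC-like and 1.21 for Flt4 in spiny projection neuron-like nuclei. With each nucleus at most once, they were 1.12 for Kit in Lhx6 interneuron-like and 1.20 for Pdgfrb in astrocyte-like nuclei. The cause was not tested. Choroid plexus epithelial-like nuclei, 1 of which was from stroke, allowed no ratio between the libraries, and endothelial-like nuclei held only 42 sham nuclei with a median of 1962 fragments.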

Other observations

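Clusters that met the criteria for no cell type name were also read for these genes. The cluster led by Atp13a5 held 41 nuclei with a median of 1404 fragments. It had 1 sham and 3 stroke fragments of Kit, 1 Pdgfrb fragment and 0 of Pdgfra, Kdr, Flt1 and Flt4. A count of 0 allows up to 58.0 CPM for each of the latter. That bound is above the level of each of them over all kept nuclei, so no difference is shown for them. The Tfcp2l1-led cluster held 33 nuclei with a median of 725 fragments, and its Pdgfrb level was 248 CPM on 9 fragments. Its highest marker score was for the mural list, of which 0 of 12 markers were detected. The Slc47a1-led cluster held 61 nuclei and had Pdgfrb at 65.4 CPM in sham and 128 in stroke (1.96, 0.739 to 6.52), while Pdgfra there was 131 and 34.4 on 10 and 7 fragments. The Skint5-led cluster was made of 24 sham and 279 stroke nuclei, with Flt1 at 56.1 in sham and 55.2 in stroke and Pdgfra at 68.1 and 29.3 (0.430, 0.260 to 0.759).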
